A study of Homo sapiens with 4 samples.

Results

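The genes of the respiratory chain and of ATP synthase were examined in A375 and SK-MEL-28, a pair of human cutaneous melanoma cell lines. Members were chosen by name, and no measured value entered the rule, although earlier results of these data were known. The rule took listed genes by symbols that mark subunits or assembly factors of complexes I to V. These symbols were MT-ND, MT-CO, MT-ATP and MT-CYB, NDUF, SDHA to SDHD, UQCR, COX followed by a digit, and ATP5. Genes of these complexes with other symbols lie outside the rule, among them the complex III subunit CYC1 and assembly factors such as SDHAF2 and COA6. Of 18175 genes and loci in the table, 116 were members, and 26 further names were left out as pseudogenes. Members comprised 13 mitochondrially encoded and 103 nuclear genes. The nuclear genes were 82 structural subunits (37 of complex I, 4 of complex II, 9 of complex III, 15 of complex IV and 17 of complex V), 17 assembly factors, the ATP synthase inhibitor ATP5IF1 and 3 noncoding loci.

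Each line had been treated with the control small interfering RNA siNC or with siLINC01291, directed by its name against the long noncoding RNA LINC01291, which gave 4 groups of 1 library each. Values of all 4 libraries are listed with A375 before SK-MEL-28 and, within a line, siNC before siLINC01291. The treatment label also names EL for both lines without saying what it is or which cells received it. Time after transfection and the number of siRNA sequences were not found in the labels. Only the line served as replication of the treatment, so every joint value rests on 1 library per line and siRNA, and p-values measure only the spread between these libraries.

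The libraries held 29351240 to 31815336 counts. Counts of LINC01291 went from 827 with siNC to 304 with siLINC01291 in A375, and from 998 to 454 in SK-MEL-28. The siLINC01291 library thus stood at 34.7% of siNC in A375 and at 44.7% in SK-MEL-28, and the joint log2 change was -1.34 (SE 0.13, edgeR adjusted p = 0.0171). All 9 melanocytic markers examined were listed and passed the test as higher in SK-MEL-28. Levels are given in FPKM, fragment counts divided by gene length and library size. In the siNC libraries SOX10 stood at 80.1 FPKM in A375 and 127 in SK-MEL-28, but the pigment cell genes PMEL (1.64 and 804), MLANA (0.830 and 286) and TYR (0.112 and 77.6) were far lower in A375. Of the markers of other cell types, the keratin KRT14 (6.16 and 7.32 FPKM in A375) and the matrix protein LUM (3.25 to 8.07 FPKM in the 4 libraries) were the ones listed.

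Complexes I and II pass electrons from NADH and succinate to ubiquinone, complex III passes them on to cytochrome c, and complex IV to oxygen. Complexes I, III and IV pump protons across the inner mitochondrial membrane, and complex V, the ATP synthase, uses that gradient to make ATP. The mitochondrial genome encodes a few core subunits of complexes I, III, IV and V. All other subunits, and the whole of complex II, are nuclear genes whose proteins are imported, so most complexes are assembled from products of both genomes. Mitochondrial messenger RNAs are cut from long transcripts that are copied from both strands of the circular genome.

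In earlier work on these data, the 7-base words CTATGAA and TCTATGA were picked because genes with them in the 3' untranslated region (3' UTR) were lower with siLINC01291. They are shown here since both members that fell, SDHD and NDUFS3, carry TCTATGA, but having been picked on these ratios they support nothing on their own. Of 99 members with a searched 3' UTR, 6 (6.06%) held a word, against 1757 of 12167 genes (14.4%). The lines below give these 6 sites and the LINC01291 site 5' to 3' on the transcript strand, from GENCODE 29 on GRCh38, with the word in capitals.
LINC01291: ggtgtctggacTCTATGAAgaatcttcatg
SDHD: tgaaaatgtatTCTATGAAaataatttttt
NDUFS3: acagcgccttaTCTATGAttgagtgtccgt
NDUFB2: tgggtggtcttTCTATGAAtgcctgtgcat
UQCRH: taaataaaagtTCTATGAtctgcaaa
UQCR11: gccacagtgctTCTATGAgccaccctgaga
SDHC: tgtaatacccaTCTATGAggtggttaggag

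The sites lie at chr2:74931480-74931509 (plus strand) in LINC01291, chr11:112095723-112095752 (plus) in SDHD, chr11:47584508-47584537 (plus) in NDUFS3 and chr7:140722679-140722708 (plus) in NDUFB2. Those of UQCRH, UQCR11 and SDHC lie at chr1:46316751-46316776 (plus), chr19:1597498-1597527 (minus) and chr1:161368779-161368808 (plus). LINC01291, SDHD and NDUFB2 hold both words, joined as TCTATGAA, whereas NDUFS3, UQCRH, UQCR11 and SDHC hold TCTATGA alone. The SDHC site belongs to a long annotated 3' UTR of 12907 bases, whereas the whole SDHC gene was counted by the authors over 1902 bases. NDUFB2 exons overlap those of other genes, BRAF among them, over 35.9% of their length, so the NDUFB2 counts are uncertain. The carriers ranged widely: within A375 and SK-MEL-28, log2 ratios of siLINC01291 to siNC were -1.35 and -1.83 for SDHD, -0.62 and -0.69 for NDUFS3, and -0.20 and -0.22 for UQCRH. They were -0.18 and -0.15 for UQCR11, -0.03 and -0.02 for NDUFB2, and 0.23 and 0.18 for SDHC. The 6 carriers had a median of -0.19 in both lines, and members without a word had 0.01 in A375 and 0.03 in SK-MEL-28. Over all genes searched and expressed, the medians were -0.08 and -0.18 with a word and 0.01 and 0.02 without.

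Few respiratory chain genes shifted with siLINC01291 in both lines. Among the 105 members that reached 1 FPKM in 2 or more libraries, 2 fell, none rose and 103 did not pass (edgeR, adjusted over 13501 genes). Over all genes tested, 0.674% fell and 0.222% rose. At an unadjusted p under 0.05 there were 11 of the 105 members, against 2282 of all 13501 genes, a larger share. The 2 that fell were SDHD, a membrane anchor of complex II, and NDUFS3, a core subunit of the peripheral arm of complex I. The median joint log2 change was -0.15 over the 13 mitochondrially encoded genes and 0.01 over the 75 tested nuclear structural subunits, against 0.01 over all genes.

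Complex II oxidises succinate to fumarate and is the one complex made by nuclear genes alone. SDHD (ENSG00000204370, chr11:112086773-112120013, plus strand, GRCh38) encodes, with SDHC, the membrane anchor that holds haem and the ubiquinone site. It stood at 20.4 FPKM in A375 siNC and 8.25 in A375 siLINC01291, and at 14.1 and 4.03 in SK-MEL-28. Both siLINC01291 libraries lay below both siNC libraries. Counts were 1767, 735, 1162 and 331 in the same order, which placed siLINC01291 at 39.2% of siNC in A375 (exact binomial 95% interval 36.0 to 42.8) and at 28% in SK-MEL-28 (24.7 to 31.6). These intervals cover counting error only. The joint log2 change was -1.58 (SE 0.14, edgeR adjusted p = 0.0137). The call was lost with limma on log2(FPKM + 1) (adjusted p = 0.118) and without the line as a block (1.00).

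The other subunits of complex II did not follow SDHD. SDHB, the iron-sulfur subunit, stood at 58.4 and 61.1 FPKM in A375 and at 99.2 and 114 in SK-MEL-28 (joint log2 change 0.10, SE 0.09, edgeR adjusted p = 0.615). SDHC, the other membrane anchor, stood at 69.4, 84.0, 51.4 and 59.6 FPKM in that order (0.21, SE 0.09, adjusted p = 0.288). SDHB and SDHC were thus higher in the siLINC01291 library of each line, where SDHD was lower, and neither passed the test. The flavoprotein SDHA was listed at only 0.578, 0.557, 0.766 and 0.752 FPKM and was not tested. SDHA had 157, 156, 198 and 194 counts while its pseudogenes SDHAP1 and SDHAP3 together had 483, 544, 311 and 358, so its level is uncertain. The SDHD pseudogene SDHDP6 had 17, 8, 13 and 4 counts, far fewer than SDHD. TIMM8B, a translocase subunit gene that overlaps SDHD exons, had within-line log2 ratios of 0.32 (A375) and 0.20 (SK-MEL-28; joint edgeR adjusted p = 0.287).

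**Figure D1:**
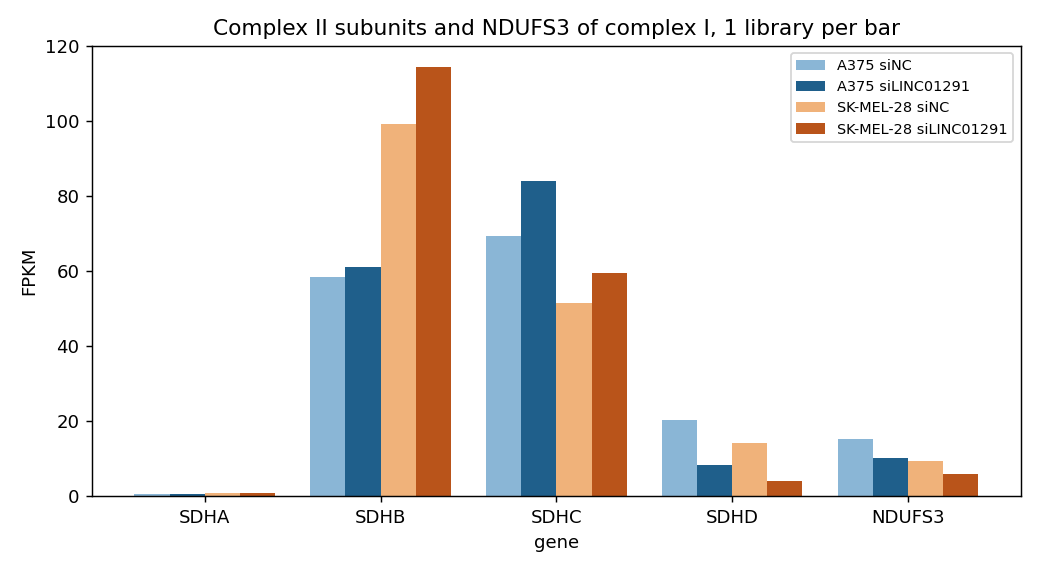
FPKM of the 4 complex II subunits and of the complex I core subunit NDUFS3, with 1 bar for each of the 4 libraries and no error bars, since each group has 1 library. SDHD fell from 20.4 to 8.25 in A375 and from 14.1 to 4.03 in SK-MEL-28, while SDHB and SDHC were higher in the siLINC01291 library of each line.

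Complex I takes electrons from NADH. Its core subunit NDUFS3 belongs to the module of the peripheral arm that passes electrons to ubiquinone. NDUFS3 (ENSG00000213619, chr11:47565336-47584562, plus strand, GRCh38) stood at 15.2 FPKM in A375 siNC and 10.1 in A375 siLINC01291, and at 9.38 and 5.93 in SK-MEL-28. Each siLINC01291 library lay below the siNC library of its line, but the A375 siLINC01291 value lay above the SK-MEL-28 siNC value. NDUFS3 with siLINC01291 was 65.0% of siNC in A375 (60.7 to 69.5) and 62.0% in SK-MEL-28 (56.6 to 67.8), and the joint log2 change was -0.65 (SE 0.10, edgeR adjusted p = 0.0487). This p lay near the threshold: the call was lost with RLE factors (0.0535), with limma (0.159) and without the line as a block. NDUFS3 exons overlap those of neighbouring genes, among them PTPMT1, CELF1 and KBTBD4, over 22.4% of their length in GENCODE 29. CELF1, the most abundant of the 3, changed with siLINC01291 by log2 0.00 (A375) and 0.24 (SK-MEL-28). KBTBD4 changed by 0.16 and -0.75 (270, 321, 133 and 80 counts). PTPMT1 changed by -0.22 and -0.42, on only 75, 68, 36 and 27 counts. KBTBD4 and PTPMT1 were thus lower in SK-MEL-28, as NDUFS3 was. The part of shared reads in the NDUFS3 change was not tested.

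NDUFAB1, the mitochondrial acyl carrier protein, stood at 76.7 and 63.7 FPKM in A375 and at 41.7 and 34.2 in SK-MEL-28. Its log2 ratio was -0.31 in each line, and it did not pass (edgeR adjusted p = 0.169). NDUFA13, which was first described as a cell death regulator, had log2 ratios of 0.30 and 0.32 at levels of only 0.990 to 2.42 FPKM (adjusted p = 0.402). The accessory subunits NDUFA8 and NDUFA11 had joint changes of 0.20 and -0.13. The median of 33 tested nuclear complex I subunits was 0.04.

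**Figure D2:**
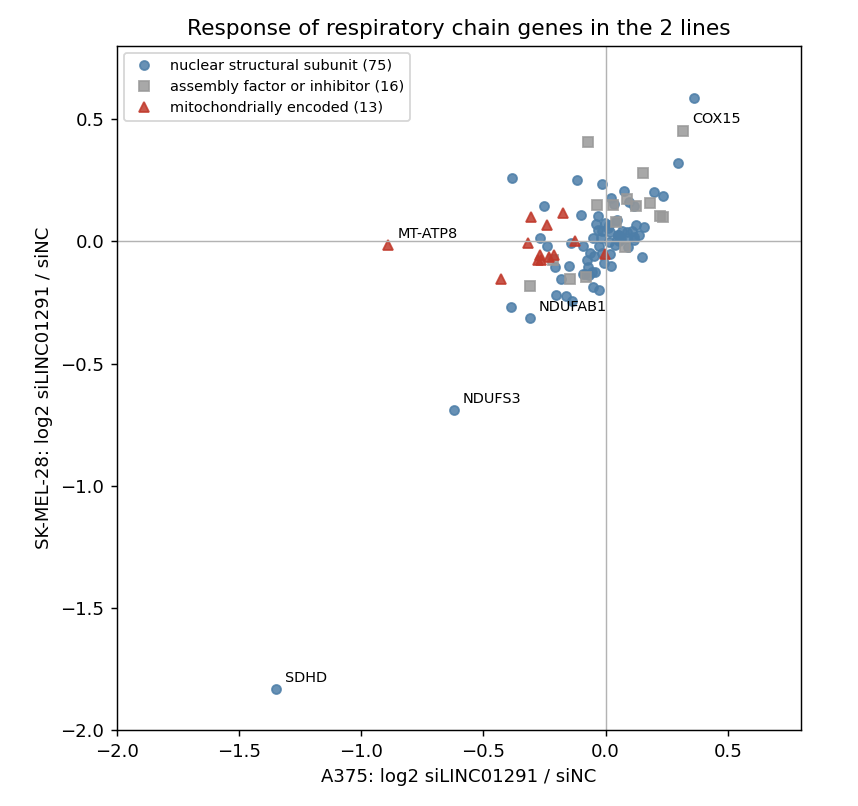
Log2 ratio of siLINC01291 to siNC in A375 (horizontal) against SK-MEL-28 (vertical) for the 104 members expressed in both lines, 1 point per gene, marked by class. SDHD and NDUFS3 lie apart at the lower left, and the 13 mitochondrially encoded genes lie left of 0 in A375.

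Within a line, a member was counted where it differed by at least 1.5-fold, with no test since each group had 1 library. In A375, of 109 expressed members none was that much higher and 4 were lower: SDHD, NDUFS3, MT-ATP8 and NDUFA4L2. Of 13244 expressed genes in A375, 4.06% were at least 1.5-fold higher and 3.86% lower. In SK-MEL-28, of 104 expressed members 1 was higher and 2, SDHD and NDUFS3, were lower, where 6.45% of 12336 expressed genes were higher and 4.99% lower. SDHD and NDUFS3 were at least 1.5-fold lower in both lines, as were 1.28% of 10988 genes expressed in both. None was that much higher in both, as were 0.801% of these genes. Across the 104 members expressed in both lines, the log2 ratios had a Pearson r of 0.72 and a Spearman rho of 0.55, and 75.0% had the same sign. Over all genes the values were 0.44, 0.43 and 64.8%. The parts differed: Pearson r was 0.11 over the mitochondrially encoded genes. Over nuclear structural subunits it was 0.80 in complex I, 0.84 in complex III, 0.28 in complex IV and -0.16 in complex V. Spearman rho was 0.24 over the mitochondrially encoded genes and 0.56, 0.72, 0.32 and 0.23 in these complexes, so the complex V value had no fixed sign. The same sign in both lines was shared by 69.2% of the mitochondrially encoded genes and by 75.8, 88.9, 53.8 and 76.5% in these complexes. All r and rho are correlations across genes of the same 4 libraries, and genes are not independent replicates.

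The 13 mitochondrially encoded subunits made up 3.25% of counts with siNC and 2.84% with siLINC01291 in A375, and 6.23 and 6.26% in SK-MEL-28. SK-MEL-28 was above A375 in both siRNA groups, and siLINC01291 was below siNC in A375 only. The 82 nuclear structural subunits made up 0.719, 0.727, 0.823 and 0.819% in the same order. Counts of the mitochondrial set were thus 4.52, 3.91, 7.57 and 7.64 times those of the nuclear set. Per length, the mitochondrial set took 13.9, 12.1, 24.2 and 24.2% of summed FPKM. With 2 libraries against 2, the smallest 2-sided exact permutation p is 0.333, so the shares were not tested. A share of a library cannot tell more mitochondrial RNA per cell from less of other RNA. Ribosomal RNA and duplicate reads were removed before counting, per the labels' protocols, and removal of duplicates can lower counts most where reads are dense. Both mitochondrial ribosomal RNAs still held 0.0297, 0.0291, 0.113 and 0.117% of counts, and 15 nuclear pseudogenes of mitochondrial genes held 0.0749, 0.0621, 0.111 and 0.111%. Both moved between the lines in the direction of the 13 genes. Their part in the result was not tested.

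Within A375, all 13 mitochondrially encoded genes were lower with siLINC01291, with a median log2 ratio of -0.27. The range ran from -0.89 for MT-ATP8 to just below 0 for MT-ND5, and the 95% counting interval lay below 0 for 12 of them. MT-ND5 alone turned higher with RLE factors, with library totals or without these genes in the scaling, and the other 12 stayed lower under each. Of all genes expressed in A375, 50.1% were lower. In SK-MEL-28 the median was -0.05, the range was -0.15 to 0.11, and 7 intervals lay below 0, 3 above and 3 across it. There 9 of the 13 were lower, beside 48.0% of all genes expressed in SK-MEL-28, and 7 with library totals. The joint test called none of the 13 (edgeR adjusted p 0.178 to 0.898), with 3 of them at an unadjusted p under 0.05, a share near that over all genes. Since both strands of the circle are transcribed as long units, the 13 ratios share their source and are not 13 independent observations.

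MT-ATP8, a small ATP synthase subunit, stood at 1124 FPKM in A375 siNC and 624 in A375 siLINC01291, but at 1590 and 1604 in SK-MEL-28. In A375 it stood at 54.0% of siNC (51.9 to 56.1). Its reading frame overlaps MT-ATP6, on the same messenger RNA, and MT-ATP6 had log2 ratios of -0.32 (A375) and -0.01 (SK-MEL-28). With 22.2% of the MT-ATP8 exon shared with MT-ATP6, reads of this pair can be split by the counting rule, which makes MT-ATP8 uncertain. MT-ND4L, which overlaps MT-ND4, stood at 2673 and 2042 FPKM in A375 and at 4967 and 4556 in SK-MEL-28 (log2 ratios -0.43 and -0.15). MT-ND5 stood at 1195 and 1227 FPKM, which are scaled by library totals, in A375 and at 2222 and 2189 in SK-MEL-28. MT-ND6, on the other strand, was lowest or next to lowest per length, at 1004, 948, 1788 and 1827 FPKM. This rank is uncertain as a level of messenger RNA, since use of strand in the counting is not stated. How evenly oligo(dT) capture took the mitochondrial messenger RNAs was not tested.

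**Figure D3:**
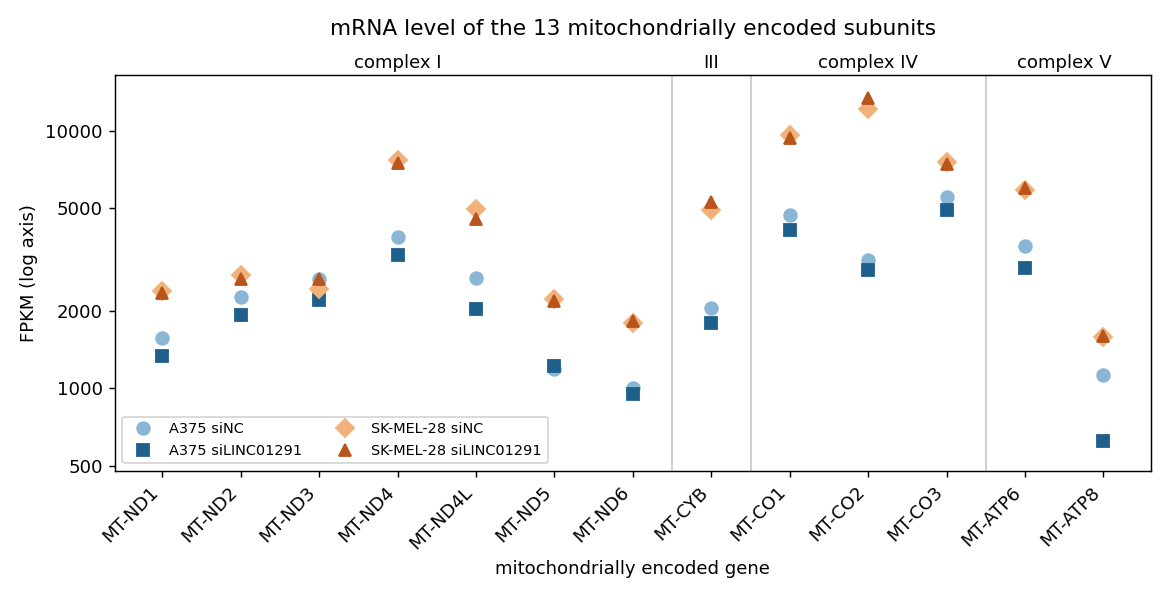
FPKM on a log axis of the 13 mitochondrially encoded subunits, by complex, with 1 point for each of the 4 libraries. MT-CO2 is the highest in both SK-MEL-28 libraries (12168 and 13438) and the fifth in both A375 libraries (3157 and 2877), and only MT-ND3 has overlapping lines.

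Most mitochondrially encoded genes were higher in SK-MEL-28. In the test of SK-MEL-28 against A375, with siRNA as a block, 12 of the 13 mitochondrially encoded genes were higher in SK-MEL-28 and none was lower (edgeR adjusted p 2.7e-06 to 0.0024). Of all 13501 genes tested, 36.1% were higher and 36.3% lower, so a call of this kind was common. The median log2 difference was 1.05 over these 13 and 0.34 over the 75 nuclear structural subunits, against -0.02 over all genes. MT-ND3, a small complex I subunit, was the exception, with 0.24 (SE 0.11, adjusted p = 0.0805). It passed without the filter on low values (0.0381). Its levels were 2653 and 2213 FPKM in A375 and 2440 and 2670 in SK-MEL-28, which overlap.

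MT-CO2 carries the copper site that takes electrons from cytochrome c, and it differed most between the lines. Its FPKM was 3157 with siNC and 2877 with siLINC01291 in A375, and 12168 and 13438 in SK-MEL-28. SK-MEL-28 was 4.76-fold higher (log2 2.25, SE 0.08, edgeR adjusted p = 2.7e-06). MT-CO2 held 6.67 and 6.94% of the counts of the 13 genes in A375 and 13.4 and 14.7% in SK-MEL-28. It was the fifth per length in both A375 libraries and first in both SK-MEL-28 libraries. MT-CO3, first in A375 at 5544 and 4925 FPKM, was the fourth in SK-MEL-28 at 7595 and 7454. MT-CO1, the catalytic subunit, was second in every library, at 4719, 4139, 9594 and 9351 FPKM. MT-ND4 was the third in each, at 3861, 3305, 7731 and 7484 FPKM.

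The other mitochondrial subunits fell between these. MT-CYB, the cytochrome b of complex III, stood at 2060, 1793, 4937 and 5282 FPKM and was 2.98-fold higher in SK-MEL-28. MT-ATP6, the proton channel subunit of complex V, stood at 3565, 2947, 5881 and 5975 FPKM and was 2.05-fold higher. Of the membrane subunits of complex I, MT-ND1 (1566, 1337, 2395 and 2350 FPKM) and MT-ND2 (2275, 1933, 2758 and 2670 FPKM) were 1.84-fold and 1.45-fold higher. All 4 of these passed the test, and their lines did not overlap.

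Among the 105 members tested, 59 were higher and 17 lower in SK-MEL-28, which is 56.2% and 16.2% beside the 36.1% and 36.3% over all genes. Without the siRNA as a block the lower count was 10. Of 75 nuclear structural subunits, 43 were higher and 14 lower. By complex, 18 were higher and 7 lower of 33 in complex I, 1 and 2 of 3 in complex II, 6 and 1 of 9 in complex III, 9 and 2 of 13 in complex IV, and 9 and 2 of 17 in complex V. Of 15 tested assembly factors, 4 were higher and 2 lower.

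**Figure D4:**
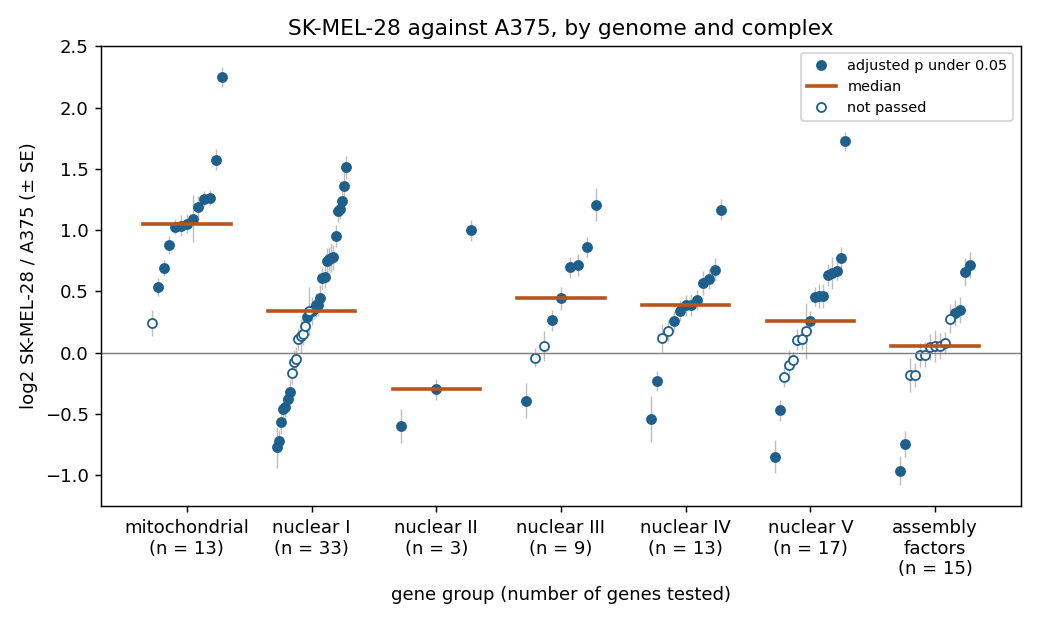
Log2 difference of SK-MEL-28 from A375 (± SE, edgeR) for each tested member, sorted within its group, with filled points at an adjusted p under 0.05 and a bar at the group median. The mitochondrially encoded genes have a median of 1.05, and each nuclear group spans 0.

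The tested nuclear subunit that differed most was ATP5MC3, which encodes the c subunit of the rotating ring of ATP synthase. ATP5MC3 stood at 43.0 and 41.5 FPKM in A375 and at 129 and 120 in SK-MEL-28 (log2 1.72, SE 0.08, edgeR adjusted p = 5.6e-06). ATP5MC1 and ATP5MC2 encode the same mature protein. ATP5MC1 was 1.55-fold higher in SK-MEL-28 (27.4, 25.6, 36.4 and 37.0 FPKM), and ATP5MC2 did not pass (41.4, 43.8, 31.9 and 34.4 FPKM, log2 -0.20, adjusted p = 0.0707). ATP5MC3 was thus the most abundant of these 3 in SK-MEL-28, while in A375 it was within a few FPKM of ATP5MC2. With siLINC01291 the 3 genes had joint log2 changes of -0.11, -0.07 and 0.06, and none passed.

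Elsewhere in complex V, the catalytic β subunit ATP5F1B was the most abundant nuclear subunit of the complex, at 461, 460, 406 and 380 FPKM, and did not pass in either test. ATP5F1A, the α subunit, was 1.37-fold higher in SK-MEL-28 (37.3, 36.7, 47.0 and 43.6 FPKM), as were ATP5MJ (1.71-fold) and the peripheral stalk subunit ATP5PB (1.59-fold). ATP5MG (4.46, 5.00, 2.26 and 2.42 FPKM) and ATP5MK (141, 142, 87.9 and 94.1 FPKM) were lower in SK-MEL-28, with log2 differences of -0.85 and -0.47. ATP5F1C, the central stalk γ subunit, had the lowest joint log2 change with siLINC01291 in this complex, at -0.19 (edgeR adjusted p = 0.339). ATP5MG had the highest, at 0.10. The inhibitor ATP5IF1, which binds the F1 part when it runs in reverse, stood at 28.2 and 31.5 FPKM in A375 and at 29.1 and 32.8 in SK-MEL-28. It passed neither test. ATP5ME had the lowest median over the 4 libraries in complex V, at 2.69 to 3.43 FPKM, although ATP5MG was lower in both SK-MEL-28 libraries.

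In complex I, NDUFA6 (22.9, 23.4, 57.5 and 60.4 FPKM), NDUFC2 (3.30, 2.87, 7.04 and 7.09 FPKM) and NDUFB3 (18.1, 20.4, 39.6 and 41.1 FPKM) were the accessory subunits with the largest difference in favour of SK-MEL-28, at log2 1.51, 1.36 and 1.23. NDUFA13, NDUFAB1 and NDUFS3 had the largest in favour of A375, at -0.77, -0.72 and -0.57. The NDUFA13 call was lost with DESeq2 and the NDUFS3 call without the siRNA as a block. NDUFS5 was the most abundant nuclear complex I subunit, at 224 to 269 FPKM, and was 1.28-fold higher in SK-MEL-28, a call lost with limma (adjusted p = 0.101). The NDUFA6, NDUFC2 and NDUFB3 lines did not overlap.

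In complex III, UQCR10 (7.98, 9.12, 17.8 and 17.4 FPKM), the core subunit UQCRC1 (60.7, 54.1, 95.6 and 90.7 FPKM) and UQCRB (6.70, 7.20, 10.0 and 10.3 FPKM) were 2.31-fold, 1.82-fold and 1.64-fold higher in SK-MEL-28. UQCRFS1, the Rieske iron-sulfur protein, was 1.62-fold higher there (33.1, 30.4, 49.1 and 42.9 FPKM). UQCR11 was lower in SK-MEL-28 (4.41, 4.00, 2.98 and 2.74 FPKM, log2 -0.39, edgeR adjusted p = 0.0467), a call lost with DESeq2 (0.368), without the filter and without the siRNA as a block. With siLINC01291, 6 of the 9 subunits were lower in A375 and 7 of 9 in SK-MEL-28, with medians of -0.16 and -0.13, but none passed the joint test. Beside this, 50.1% of all genes expressed in A375 and 48.0% of those expressed in SK-MEL-28 were lower. The lowest joint changes were those of UQCRHL (-0.33), the hinge protein UQCRH (-0.21) and UQCRFS1 (-0.19). UQCRH stood at 229, 204, 200 and 175 FPKM, and UQCRHL, a near-identical intronless copy, at 8.03, 6.31, 7.16 and 6.07. Reads of the pair cannot be kept apart with certainty. UQCRQ (0.04) had the highest joint change.

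Complex IV contains subunits with tissue-specific isoforms. COX4I1, the common form of subunit 4, stood at 54.4, 56.8, 43.4 and 41.3 FPKM and was lower in SK-MEL-28 (log2 -0.23, edgeR adjusted p = 0.0425). This call was lost with DESeq2 (0.0994), without the filter and without the siRNA as a block. COX7A2, the widely expressed form of subunit 7a, stood at 39.0, 42.0, 46.0 and 48.4 FPKM, and COX7A2L, a factor in supercomplex assembly, at 15.1, 15.2, 17.2 and 18.1. COX7A1, the heart and muscle form, had 20, 18, 2 and 1 counts, or 1.10, 0.962, 0.116 and 0.0580 FPKM, and was not tested. In siNC cells, COX7A1 in A375 was 8.51 times its level in SK-MEL-28 (counting interval 2.07 to 75.1). COX7B stood at 31.1, 32.5, 36.3 and 35.7 FPKM and COX7B2, its testis form, at 4.74, 4.83, 2.66 and 3.20. COX7B2 was thus lower in SK-MEL-28 where COX7B was higher, with log2 differences of -0.54 and 0.34, both past the test. The first was lost with DESeq2 (0.407) and without the siRNA as a block (0.0543), and the second with limma (0.130).

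NDUFA4, now assigned to complex IV, stood at 31.4, 33.6, 43.5 and 44.4 FPKM. NDUFA4L2, its hypoxia-induced paralog, had 87, 56, 21 and 28 counts (1.00, 0.625, 0.254 and 0.339 FPKM) and was not tested. COX5B (47.9, 50.9, 97.7 and 100 FPKM), on the matrix side, was 2.25-fold higher in SK-MEL-28, and COX6C was 1.60-fold higher. COX5A was the most abundant nuclear subunit of complex IV, at 97.2, 95.5, 117 and 115 FPKM. COX6B1 (79.7 to 84.2 FPKM) and COX6A1 (13.6 to 15.2 FPKM) passed in neither test, and COX8A (65.4, 67.2, 84.7 and 91.0 FPKM) was 1.49-fold higher in SK-MEL-28. COX4I2, COX6A2, COX6B2 and COX8C match the name rule but were not among the listed genes, so they could not be analysed. With siLINC01291 all tested nuclear subunits of complex IV lay within a joint log2 change of -0.12 (COX6A1) to 0.10 (COX7B2), and none passed.

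Among the assembly factors, none of 15 passed with siLINC01291. COX15, needed for synthesis of haem A, had the highest joint change, from 8.64 to 11.1 FPKM in A375 and from 7.29 to 10.2 in SK-MEL-28 (log2 0.39, SE 0.10, edgeR adjusted p = 0.139). NDUFAF6 followed with 0.22. NDUFAF4 (-0.25) and COX19 (-0.15) were lowest. Between the lines, NDUFAF1 (6.85, 6.88, 2.95 and 3.34 FPKM) and NDUFAF7 (10.7, 11.3, 5.62 and 6.05 FPKM), both complex I factors, were lower in SK-MEL-28. COX19 (2.31, 2.15, 3.27 and 3.00 FPKM) and NDUFAF6 (3.89, 4.45, 5.47 and 6.78 FPKM) were higher. The antisense locus COX10-AS1 stood at 1.42, 1.54, 0.489 and 0.605 FPKM, and the labels do not say whether the counting used strand.

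Levels of nuclear structural subunits were not equal, although the proteins of a complex occur in fixed proportion. Median FPKM over the 4 libraries ran from 0.275 for NDUFA7 to 433 for ATP5F1B. NDUFA7, NDUFA9, NDUFS7, NDUFV2, SDHA, COX7A1 and NDUFA4L2 did not pass the filter on low values, nor did COX16, COX20, NDUFA6-DT and NDUFV2-AS1. The levels went with how much of a gene's exons overlapped other genes in GENCODE 29. The median was 31.9 FPKM in 37 subunits with no overlap, 16.7 in 35 with up to 25% and 3.34 in 10 with more. In each of these classes, 6 subunits lay under 5 FPKM. The length the authors used also went with the level, with a Spearman rho of -0.41 across 82 subunits, which share the libraries and have the length in their FPKM. NDUFV2 had 63, 61, 20 and 15 counts beside 82, 93, 114 and 106 in its pseudogene NDUFV2P1, and COX20 had 72, 75, 30 and 32 beside 80, 93, 86 and 76 in COX20P1 and COX20P2. These low levels are therefore uncertain. The part of overlap and of shared reads was not tested.

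Promoters were searched for the motifs of 3 transcription factors known for respiratory genes: NRF1 (its 10-base consensus with any base at the sixth place), the ETS factor GABPA (CCGGAAG) and YY1 (AAGATGG), on both strands, from 250 bases before to 50 after the start, in RefSeq on GRCh38.p14. Of 82 nuclear structural subunits, 66 had a promoter in the table. The NRF1 motif was found in 16 (24.2%), against 6.28% of all 27305 promoters, the ETS motif in 20 (30.3%) against 10.7%, and the YY1 motif in 16 (24.2%) against 6.06%. At least 1 motif was found in 40 (60.6%) against 20.5%. The 27305 promoters were not limited to expressed genes or to the genes of these data. Whether the higher shares are particular to respiratory genes was therefore not tested. A match is a description and does not show binding. The NRF1 matches of SDHD, UQCRC1, NDUFA8 and ATP5F1C are shown as examples from 4 complexes, on the strand of the gene with the motif in capitals. The UQCRC1 match lies on the opposite strand, so its capitals are the reverse complement of the consensus.
SDHD: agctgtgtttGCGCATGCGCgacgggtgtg
UQCRC1: gtacggtactGCGCCTGCGCcgcgaccgcc
NDUFA8: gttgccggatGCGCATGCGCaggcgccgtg
ATP5F1C: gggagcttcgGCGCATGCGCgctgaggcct

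These lie at chr11:112086753-112086782 (plus strand) for SDHD, chr3:48609674-48609703 (minus) for UQCRC1, chr9:122159764-122159793 (minus) for NDUFA8 and chr10:7788145-7788174 (plus) for ATP5F1C. The 4 genes had joint log2 changes of -1.58, -0.15, 0.20 and -0.19 with siLINC01291, and only SDHD passed.

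Further lists of genes that serve the respiratory chain were examined beside it. They were fixed by hand with earlier results of these data known, so a call within them is a description. Of 14 tested genes of mitochondrial transcription and replication, TFAM fell and none rose, where 0.674% of all genes tested fell and 0.222% rose. TFAM, which packages the mitochondrial genome and starts its transcription, stood at 22.4 FPKM in A375 siNC and 12.3 in A375 siLINC01291, and at 17.6 and 7.11 in SK-MEL-28. Its joint log2 change was -1.12 (SE 0.13, edgeR adjusted p = 0.0265). TFB2M (joint -0.40), TFB1M (0.32) and MTERF2 (0.26) did not pass. Of 9 tested translation and membrane insertion factors, GFM2, a factor of ribosome recycling, fell from 14.2 to 8.77 FPKM in A375 and from 12.6 to 6.68 in SK-MEL-28 (-0.84, SE 0.11, adjusted p = 0.0370), and none rose. Both calls were lost with limma and without the line as a block, where no gene passed.

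No gene passed in the other lists. Of 15 tested genes of mitochondrial RNA processing, LRPPRC, which stabilises mitochondrial messenger RNAs, had the lowest joint change (-0.33, edgeR adjusted p = 0.115). Of 15 expressed in A375, 14 were lower with siLINC01291, with a median log2 ratio of -0.11. Of 16 expressed in SK-MEL-28, 9 were lower. Over all expressed genes, 50.1% were lower in A375 and 48.0% in SK-MEL-28. Of 10 tested nuclear regulators, PPARA had the highest (0.67, adjusted p = 0.0526). The phosphate carrier SLC25A3 stood lowest of 4 carriers (-0.42, adjusted p = 0.0682), and the coenzyme Q synthesis gene PDSS2 highest of 15 electron carrier and coenzyme Q genes (0.59, adjusted p = 0.0940). Of 75 tested genes of the mitochondrial ribosome, MRPL18 stood at 41.6 and 27.6 FPKM in A375 and at 37.9 and 18.9 in SK-MEL-28 (-0.83, adjusted p = 0.0514). Of 32 tested other assembly factors the ends were COA6 (-0.30) and COA3 (0.33), and of 14 genes of the tricarboxylic acid cycle the lowest was DLST (-0.26). Among the genes at the ends of these lists, a 3' UTR word given above was held by TFAM, GFM2, LRPPRC, GABPB1 and SLC25A4, which had negative joint changes, and by PPARA, COQ7 and PPARD, which had positive ones. Both the words and the ends of the lists were picked on these ratios, so these signs support nothing. The word was found in 14.4% of all genes searched.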

How the data were processed

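Total RNA of 4 libraries was enriched with oligo(dT) beads, per the labels' protocols, which name HISAT2, StringTie and HTSeq; the submitters' processing notes name hg19, DESeq2 and edgeR without versions. The authors deposited whole-read counts per gene, which were the basis of every test. The deposited FPKM of the authors, scaled by library total and by 1 length per gene, gave the levels and the filter. The deposited CPM and TPM of the authors were not used for any comparison. Coordinates and sequences come from GENCODE 29 (GRCh38) and RefSeq (GRCh38.p14), not hg19. Lengths in the table equal GENCODE 29 exon unions for 40 of 116 members and lie within 10% for 85.

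The members and lists were chosen with earlier results of these data known. Counts were fitted in edgeR 4.0.16 (R 4.3.3; quasi-likelihood, TMM factors) on siRNA and line, leaving 1 residual degree of freedom, over the 13501 genes that reached 1 FPKM in 2 or more libraries, with Benjamini-Hochberg adjustment (threshold 0.05). The pairing comes from the cell line. Within lines, log2 ratios used a prior count of 2 and genes at 1 FPKM or more in either library, with exact binomial 95% intervals of counting error. Genes were named by rule: mitochondrially encoded genes, complex II, members that passed, the 3 highest and lowest changes with siLINC01291 and between lines per complex, the ends of abundance, isoform pairs, and the ends of each list; NDUFAF1 and NDUFAF7, COX10-AS1 and genes with shared reads were added after their values were seen. Tested on simulated data of 13501 genes, the fit of siLINC01291 against siNC found 82% of simulated 1.5-fold changes and 100% of 2-fold ones, with 5 false calls among 196. The changed genes were drawn only from those above the median fitted count. They were given the same change in both lines and the dispersions of the fit itself. These rates therefore do not cover genes of low counts or changes that differ between the lines. Alternatives used limma 3.58.1, DESeq2 1.42.0 and other factors, filters and prior counts. Some genes that the rule would name are not reported here.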

Additional observations from a re-analysis of the deposited data

Results flagged for a closer look

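In 5 members the siLINC01291 library was lower than siNC in A375 and higher in SK-MEL-28, with 95% counting intervals clear of 0 in each line. The share of all genes that did so was not counted, so the 5 are a description only. Of genes expressed in both lines, 64.8% had the same sign in both, as did 75.0% of members. The difference between lines was not tested, since each line has 1 library per siRNA. The log2 ratios of MT-ND3 were -0.30 (A375) and 0.10 (SK-MEL-28). MT-CYB had -0.241 and 0.0691, and MT-CO2 had -0.18 and 0.11. Of the nuclear members, NDUFS6, an accessory subunit of complex I, had -0.10 and 0.11 (102, 97.5, 67.6 and 74.3 FPKM), and ATP5F1D, the δ subunit of complex V, had -0.25 and 0.14 (29.8, 25.8, 21.7 and 24.5 FPKM). The counting intervals hold no spread between cultures.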

How the results depend on the processing

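Over both lines, the count of fallen members was 2 and became 1 with RLE factors and 0 with limma on log2(FPKM + 1) or without the line as a block. Limma and the fit without the block called no gene at all, with 2023 and 51 genes at an unadjusted p under 0.05. The count of risen members was 0 and became 1 with DESeq2 or without a filter. Between the lines, 17 lower members became 10 without the block, and the higher count stayed at 46 to 63. The mitochondrial median log2 ratio of -0.27 in A375 became -0.25 with RLE factors, -0.22 with library totals and -0.25 without mitochondrially encoded genes in the scaling; that of -0.05 in SK-MEL-28 became -0.046, -0.021 and -0.058. The nuclear structural median of -0.015 in A375 turned to 0.00088 (RLE), 0.026 (totals) and 0.012 (FPKM of at least 5), and was -0.0026 without mitochondrial genes; the cause was not tested. In SK-MEL-28 it moved from 0.013 to 0.041 with totals. The 1 member at least 1.5-fold higher in SK-MEL-28 became 0 without mitochondrial genes in the scaling and 2 without a filter. With pseudogenes, the mitochondrial shares were 3.32, 2.91, 6.34 and 6.37% of counts, and they were 13.9, 12.1, 24.2 and 24.2% of summed FPKM. Of the values of 69 single genes, 744 kept direction and side of the threshold, 31 lost and 5 gained the call. Leaving out a library leaves no residual degree of freedom, so no such test was run. Depth was not limiting for most members, but COX7A1, NDUFA7 and other low ones rest on few counts.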
